A study of Mus musculus with 147 samples.

Results

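The 10 cell cycle genes described here are the D-type cyclins *Ccnd1*, *Ccnd2* and *Ccnd3*, their kinases *Cdk4* and *Cdk6*, the replication clamp *Pcna*, and the proliferation genes *Mki67*, *Top2a*, *Ccnb1* and *Cdk1*. They were taken by symbol from the WT and the Reninnull count tables, where all 10 were found among 35438 genes. The cells carried a Ren1c-YFP transgene, in which the 5′ regulatory sequence of *Ren1c* drives YFP, and were sorted for YFP from the kidney cortex of adult C57BL/6 mice. The 51 WT renin cells came from 4 Ren1c+/+ Ren1c-YFP mice in 1 capture. The 96 Reninnull cells came from 12 Ren1c-/- Ren1c-YFP mice, which had received saline as neonates, in 4 captures, and were sequenced as libraries YFP1 and YFP2 of 48 wells each. Each cell was lysed in its own well of a Fluidigm C1 chip, and SMART-Seq v4, a full-length chemistry with no molecular identifiers, was used to make cDNA. YFP reports the activity of the *Ren1c* regulatory sequence, so the sort selects by that activity and not by cell type.

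The labels tie no well to a mouse or capture. Each genotype therefore counts as 1 sample, and the genotypes were not tested against each other. The effects of genotype, capture and sequencing library cannot be told apart. All intervals are 95% intervals. Those of levels and ratios cover read-counting error only, since PCR copies of a molecule are counted as separate reads. Those of shares of wells treat wells as independent draws, although wells of 1 mouse or capture are not, and cover the number of wells only. Neither kind covers the spread between mice or captures, so they describe these wells and do not compare genotypes. The unit is CPM, estimated counts per 1000000 counts, either in a single well or in the summed wells of a genotype. It is not stated whether the tables of both genotypes were summed from transcripts to genes in 1 run, which bears on every level set across them. A lower summed level can come from fewer cells with the transcript or from less transcript per cell, so the values by well are given beside the sums.

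The labels were checked first. *Ren1*, the renin gene, was counted in every WT well, at 563 to 313965 CPM with a median of 21402. In Reninnull wells its median was 0 and its highest value 12.5 CPM. *Akr1b7*, an aldo-keto reductase used as a marker of renin cells, had a median of 254 CPM in WT wells and 376 CPM in Reninnull wells, with 63.4 in YFP1 and 527 in YFP2. Its summed level was 4528 CPM in WT and 2011 CPM in Reninnull, a log2 ratio of -1.17. WT wells held 26401 to 17124854 counts and Reninnull wells 3628 to 14505243, and mitochondrially encoded genes took a median of 60.4% and 12.4% of them. Wells with a minimum of 100000 counts and 1000 genes and a mitochondrial share of 25% or less are called quality wells below, and numbered 15 of 51 in WT and 57 of 96 in Reninnull. Wells 45, 46, 47 and 48 of the Reninnull cells correlated with wells 93, 94, 95 and 96 at 0.974 to 0.987 across genes, against 0.896 for the next pair, and 3 of these 4 pairs lay across YFP1 and YFP2. Counting each pair once leaves 92 Reninnull wells.

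D-type cyclins bind CDK4 or CDK6 in G1 and start the phosphorylation of the retinoblastoma protein, which frees E2F factors to switch on the genes of S phase. *Pcna* then holds DNA polymerase on its template, *Top2a* encodes the topoisomerase that untangles replicated chromosomes, and *Mki67* encodes the Ki-67 protein that coats mitotic chromosomes. *Cdk1* with cyclin B1, the product of *Ccnb1*, drives entry into mitosis. D-type cyclins and their kinases are often present in resting cells, whereas *Mki67*, *Top2a*, *Ccnb1* and *Cdk1* are transcribed mainly from S phase to mitosis.

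The promoters of the last 4 genes are shown because at least 3 of these genes reached 10 CPM together in 2 wells described below, and all 4 in 1 of them. Each is the 150 bases before the RefSeq start on GRCm38.p6, read 5′ to 3′ toward the gene, with CCAAT boxes (CCAAT, or ATTGG on the other strand) and the letters of the cell cycle genes homology region, CHR (TTTGAA, or TTCAAA on the other strand), in capitals:
Mki67, chr7:135716380-135716529, minus strand: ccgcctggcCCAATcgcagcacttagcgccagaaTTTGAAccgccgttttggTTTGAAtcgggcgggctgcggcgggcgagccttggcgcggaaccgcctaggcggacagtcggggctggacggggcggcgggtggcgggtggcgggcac
Top2a, chr11:99024190-99024339, minus strand: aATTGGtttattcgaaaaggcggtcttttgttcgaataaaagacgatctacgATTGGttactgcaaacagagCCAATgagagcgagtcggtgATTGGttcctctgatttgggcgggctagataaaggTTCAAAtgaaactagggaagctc
Ccnb1, chr13:100786487-100786636, minus strand: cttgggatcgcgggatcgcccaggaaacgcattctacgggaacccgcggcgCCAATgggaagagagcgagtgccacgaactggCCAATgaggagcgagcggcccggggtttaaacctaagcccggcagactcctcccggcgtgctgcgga
Cdk1, chr10:69352913-69353062, minus strand: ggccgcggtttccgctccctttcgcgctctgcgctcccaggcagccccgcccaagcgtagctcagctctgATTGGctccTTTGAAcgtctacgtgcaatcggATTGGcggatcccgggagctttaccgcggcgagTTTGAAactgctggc

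In the 250 bases before their starts, searched on both strands, *Mki67* held 2 CHR and 3 CCAAT matches, *Top2a* held 2 and 6, *Cdk1* held 2 and 3, and *Ccnb1* held 0 and 2. Of 32851 RefSeq promoters of that length, 16.0% held a CHR match and 33.8% a CCAAT match. Of the other members, *Ccnd3* and *Pcna* each held 1 CCAAT match and no CHR match, and *Cdk4* and *Cdk6* held neither. The E2F octamers TTTCCCGC, TTTGGCGC, TTTCGCGC and TTTGCCGC were found in *Cdk1* alone among these 8 genes, as 1 match, and in 1.86% of all promoters. No match of one motif overlapped a match of another in these genes. These matches describe the letters and do not show that a factor binds there.

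Per transcript length, *Ccnd2* was the most abundant member in both genotypes. In summed WT wells it stood at 238 CPM per kilobase of its longest coding transcript, followed by *Cdk6* at 37.1, *Pcna* at 23.4, *Cdk4* at 22.1 and *Ccnd1* at 5.36, and the other 5 members were below 1 CPM per kilobase. In summed Reninnull wells it stood at 152 CPM per kilobase, followed by *Cdk4* at 53.2, *Cdk6* at 23.6, *Ccnd1* at 22.3 and *Ccnd3* at 20.6. *Mki67* came last in both. Of the 10 members, 7 were 2-fold or more higher in Reninnull wells (*Ccnd1*, *Ccnd3*, *Cdk4*, *Mki67*, *Top2a*, *Ccnb1* and *Cdk1*) and *Pcna* alone was 2-fold or more lower, while *Ccnd2* and *Cdk6* were lower by less. These shares are to be read against all 18720 genes with a ratio, of which 52.4% were 2-fold or more higher in Reninnull wells and 18.5% 2-fold or more lower. Any higher level at all was seen for the same 7 members and for 67.6% of all genes. Over all genes the log2 ratio had a median of 1.17, and of 0.47 and 0.33 where TMM or median-of-ratios size factors replaced plain CPM, so each ratio below stands beside that shift. As a count over wells and not a test, the intervals of the share of wells at 10 CPM or more lay apart for none of the 10 members, and for 4.69% of 16045 genes with a higher share in Reninnull wells and 1.36% with a lower one. A single count exceeds 10 CPM in wells of under 100000 counts, of which there were 3 in WT and 13 in Reninnull.

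**Figure D1:**
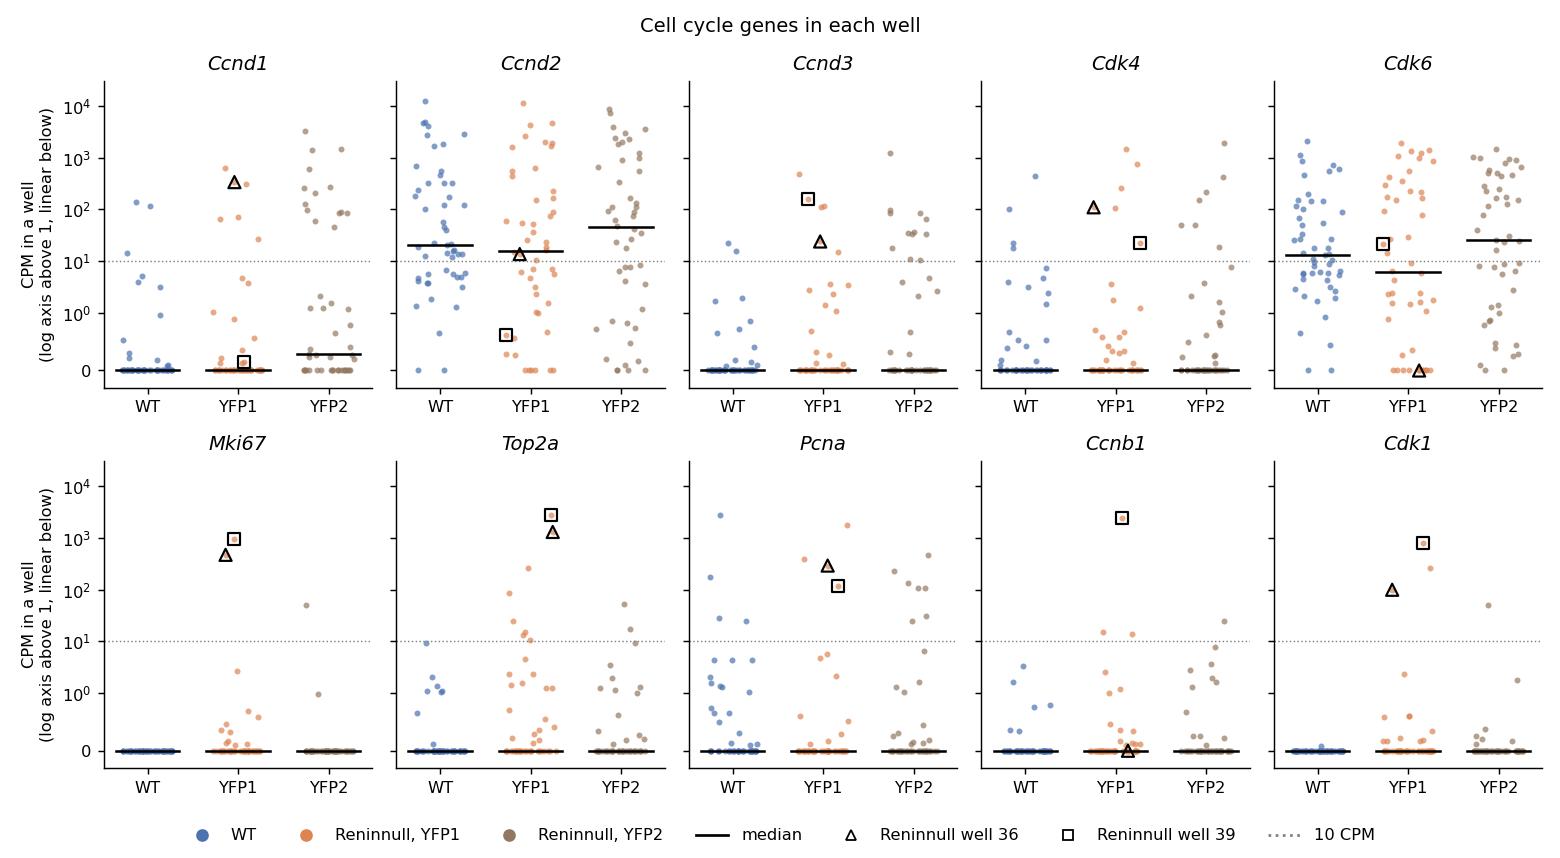
CPM of each of the 10 genes in every well (log axis above 1 CPM, linear below), by genotype and sequencing library, with 51 WT wells and 48 wells each in YFP1 and YFP2, black lines for medians and a dotted line at 10 CPM. *Ccnd2* and *Cdk6* spread over several orders of magnitude in all 3 libraries, and *Mki67*, *Top2a*, *Ccnb1* and *Cdk1* reach their highest values in well 39 (open square), with well 36 (open triangle) next to it for *Mki67* and *Top2a*.

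*Ccnd2*, the cyclin of chr6:127125162-127152193 (minus strand, GRCm38, as all gene positions here), was the main D-type cyclin of both genotypes. Its values by well ran from 0 to 12134 CPM in WT, with a median of 20.8, and from 0 to 11457 CPM in Reninnull, with a median of 25.0. The genotypes overlapped over their whole range, and 8 WT and 18 Reninnull wells reached 1000 CPM. Summed, *Ccnd2* held 1509 CPM in WT and 960 CPM in Reninnull wells, a log2 ratio of -0.65 (-0.66 to -0.65). YFP1 alone gave -0.73 and YFP2 alone -0.59, but the mean over wells of CPM gave a log2 ratio of 0.01, where deep wells no longer weigh more than shallow ones. A count of *Ccnd2* was found in 49 of 51 WT wells and 86 of 96 Reninnull wells, and 10 CPM in 34 WT wells (66.7%, 52.1% to 79.2%) and 56 Reninnull wells (58.3%, 47.8% to 68.3%). Among quality wells, 14 of 15 WT wells reached 10 CPM (93.3%, 68.1% to 99.8%) and 32 of 57 Reninnull wells did (56.1%, 42.4% to 69.3%), whereas among the other wells the counts were 20 of 36 and 24 of 39.

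*Ccnd1*, at chr7:144929931-144939925 (minus strand), reached 10 CPM in a minority of wells of either genotype. In WT, 38 of 51 wells were at 0 and only wells 43, 10 and 6 exceeded 10 CPM, with 136, 119 and 14.6 CPM. In Reninnull, 51 of 96 wells were at 0, 20 exceeded 10 CPM (20.8%, 13.2% to 30.3%, against 5.88%, 1.23% to 16.2%, in WT) and 11 exceeded 100 CPM. Among quality wells the shares at 10 CPM lay closer, with 3 of 15 WT wells (20%, 4.33% to 48.1%) and 14 of 57 Reninnull wells (24.6%, 14.1% to 37.8%). The highest were well 72 at 3272 CPM and well 89 at 1457 CPM, both in YFP2, and well 60, also in YFP2, reached 1428 CPM from 13 counts. Both genotypes thus shared the range up to 136 CPM, above which all wells were Reninnull. Summed levels were 20.1 CPM in WT and 83.5 CPM in Reninnull, a log2 ratio of 2.06 (2.01 to 2.11), which is 0.89 above the median of all genes. The libraries differed, with a log2 ratio of 0.65 in YFP1, which is below the YFP1 median of all genes of 0.71, and of 2.66 in YFP2. Well 89 held 47.1% of the Reninnull counts of *Ccnd1* and well 43 held 58.6% of the WT counts. Within the libraries, well 45 held 82.6% of the YFP1 counts and well 89 held 56.9% of the YFP2 counts. Well 45 is near-identical to well 93 of YFP2, so the 2 library ratios are not fully separate. In wells thinned to 100000 counts, 1 count or more was left in 4 of 48 WT wells and 19 of 83 Reninnull wells, a share that index sharing, described below, can also raise.

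*Ccnd3*, at chr17:47505051-47599691 (plus strand), was the D-type cyclin with the widest difference. WT wells held 223 counts in all, of which well 10 had 195, at 16.0 CPM, and the highest CPM in WT, 22.7 in well 27, came from 1 count. In Reninnull, 60 of 96 wells were at 0, 18 exceeded 10 CPM (18.8%, 11.5% to 28.0%, against 3.92%, 0.478% to 13.5%, in WT), and the highest were wells 82 and 30, at 1199 and 478 CPM. Among quality wells, 1 of 15 WT wells and 14 of 57 Reninnull wells reached 10 CPM. The sums were 1.13 CPM in WT and 43.6 CPM in Reninnull, a log2 ratio of 5.27 (5.08 to 5.47). YFP1 alone gave 4.70 and YFP2 alone 5.63, and the ratio lay between 4.44 and 7.17 under every setting tried. Reads of *Ccnd3* and of *Bysl*, which overlaps it on the opposite strand, cannot be told apart where they overlap, because the library kit does not mark strand, and *Bysl* had 464 WT and 7708 Reninnull counts. The same holds for *Ccnd1* and *LTO1*, which had 22534 WT and 18530 Reninnull counts, and for *Cdk4* and *Tspan31*, which had 3170 and 19843.

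The 3 cyclins were then set against each other per transcript length, to see which one each genotype used. *Ccnd2* made up 97.6% of the D-type cyclin counts per length in WT, *Ccnd1* 2.20% and *Ccnd3* 0.218%. In Reninnull wells the shares were 77.9%, 11.5% and 10.6%. Both Reninnull libraries lay on the same side of WT, with *Ccnd2* at 86.6% in YFP1 and 72.4% in YFP2. By well, among those with any D-type cyclin at 10 CPM or more, *Ccnd2* led in 32 of 34 WT wells (94.1%, 80.3% to 99.3%) and 43 of 62 Reninnull wells (69.4%, 56.3% to 80.4%). *Ccnd1* led in 1 WT and 13 Reninnull wells and *Ccnd3* in 1 and 6. Among quality wells *Ccnd2* led in 13 of 14 WT wells (92.9%, 66.1% to 99.8%) and 22 of 37 Reninnull wells (59.5%, 42.1% to 75.2%). In 30 WT and 39 Reninnull wells only 1 of the 3 genes reached 10 CPM. At least 2 of them reached 10 CPM in 4 of 34 WT wells (11.8%, 3.30% to 27.5%) and 23 of 62 Reninnull wells (37.1%, 25.2% to 50.3%), and all 3 did so in 1 and 9 wells, or 7 Reninnull wells with near-identical wells counted once. WT well 10, the well with all 3, held 12216332 counts and 10791 genes, the most genes of any WT well, and over 9000 genes were counted in that WT well and in 6 Reninnull wells. No doublet caller was run and the part of doublets in these wells was not tested.

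**Figure D2:**
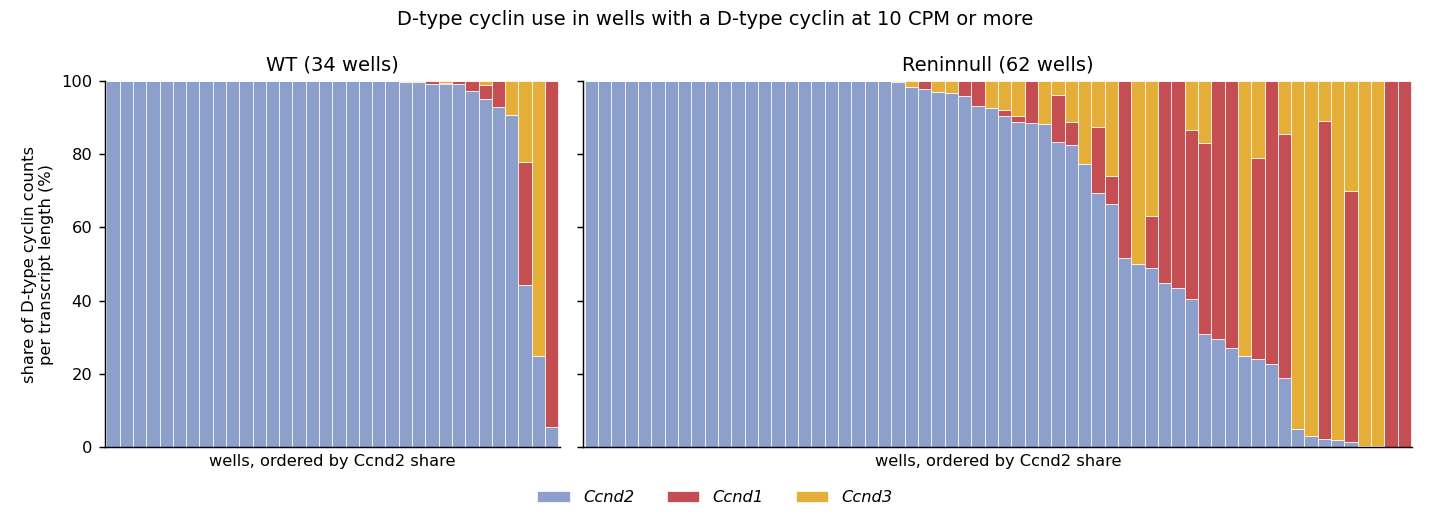
Share of each D-type cyclin in the D-type cyclin counts per transcript length (%, stacked to 100), 1 bar per well with a D-type cyclin at 10 CPM or more, for 34 WT and 62 Reninnull wells ordered by *Ccnd2* share. *Ccnd2* (blue) fills nearly all WT bars, while *Ccnd1* (red) leads in 13 Reninnull bars and *Ccnd3* (yellow) in 6.

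*Cdk6*, at chr5:3341485-3531008 (plus strand), was counted in 49 of 51 WT wells and 83 of 96 Reninnull wells. Its values by well ran from 0 to 2053 CPM in WT, with a median of 13.1, and from 0 to 1926 CPM in Reninnull, with a median of 15.3, and the genotypes overlapped throughout. At 10 CPM it was found in 28 of 51 WT wells (54.9%, 40.3% to 68.9%) and 49 of 96 Reninnull wells (51.0%, 40.6% to 61.4%). Summed levels were 428 CPM in WT and 272 CPM in Reninnull, a log2 ratio of -0.65 (-0.67 to -0.64), with -0.37 in YFP1 and -0.94 in YFP2. WT well 43 held 41.5% of the WT counts. The direction turned with the weight given to deep wells: the mean over wells of CPM gave 0.63 and wells thinned to 100000 counts gave 0.61. In quality wells *Cdk6* reached 10 CPM in 14 of 15 WT wells and 33 of 57 Reninnull wells, against 14 of 36 and 16 of 39 of the other wells.

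*Cdk4*, at chr10:127063534-127067920 (plus strand), was found in few wells at a high level. In WT only well 43, at 442 CPM, and well 10, at 103 CPM, exceeded 100 CPM. In Reninnull 9 wells did so, led by well 89 at 1886 CPM and well 17 at 1494 CPM, and 57 of 96 wells were at 0. Summed levels were 45.3 and 109 CPM, a log2 ratio of 1.27 (1.24 to 1.30), beside 1.17 for the median gene. Wells 43 and 89 held 84.5% and 46.7% of the counts of their genotype. With the highest well of each gene left out the log2 ratio was 3.05, against a median of all genes of 1.89 under that setting. It was under 2-fold with TMM factors (0.57), with median-of-ratios factors (0.43), in YFP1 alone (0.97) and in quality wells (0.99, against a median of all genes of 1.11). Per length, *Cdk4* made up 37.3% of the counts of the 2 kinases in WT and 69.3% in Reninnull, or 21.1% and 50.4% with the mean in place of the longest transcript length. By well *Cdk6* led in both genotypes, in 23 of 28 WT wells (82.1%, 63.1% to 93.9%) and 41 of 54 Reninnull wells (75.9%, 62.4% to 86.5%).

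WT well 43, the deepest of all wells with 17124854 counts, was the highest WT well for *Ccnd1*, *Cdk4* and *Cdk6*. It also held 98.7% of the WT counts of *Emcn* and 97.1% of those of *Flt1*, both endothelial markers. Of the other endothelial markers, *Pecam1* and *Kdr* were highest in WT wells 10 and 3, and *Cdh5* had 0 WT counts. Well 43 also held the most *Ren1* counts of any WT well, 22.6%. The part of endothelial transcripts in its values was not tested. Counts of *Cdk4* and *Ccnd1* elsewhere in WT went with the sequencing index. A count of *Cdk4* was found in 13 of 14 wells that share an index with well 43 and in 4 of 36 that share none, and a count of *Ccnd1* in 9 of 14 and 3 of 36. *Cdk6* was counted in 14 of 14 and 34 of 36. In YFP2, wells sharing an index with well 89 had a count of *Cdk4* in 8 of 14 and the others in 11 of 33, whereas in YFP1 wells sharing an index with well 17 had one in 4 of 14 and the others in 14 of 33. For *Ccnd1* in YFP2, wells sharing an index with well 89 had a count in 10 of 14 and the others in 18 of 33. In YFP1, wells sharing an index with well 45 had a count of *Ccnd1* in 4 of 14 and the others in 11 of 33. The 10 CPM limit was met by *Cdk4* in 4 WT wells, of which wells 27 and 23 had 1 and 2 counts.

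*Ccnd2* and *Cdk6*, the cyclin and kinase with the most counts, were both at 10 CPM or more in 25 of 51 WT wells and in 30 of 96 Reninnull wells, and neither was in 14 and 21. Across wells their Spearman rho was 0.50 in WT and 0.18 in Reninnull, and among quality wells 0.09 over 15 and 0.29 over 57 wells. The Reninnull libraries differed, with 0.37 in YFP1 and -0.10 in YFP2 over all wells and 0.55 and 0.02 over quality wells. Wells of 1 library share its preparation, and depth varied widely among them. No WT quality well lacked both genes. The 5 genes most like each D-type cyclin were ranked by Spearman rho over the 57 Reninnull quality wells, among 5268 genes with a count in at least 50% of them. For *Ccnd1* they were *Sqstm1* (rho 0.63), an autophagy receptor, *Ssb* (0.57), *Marcks* (0.56), *Snrpg* and *Eif2s2*. For *Ccnd2* they were *Fn1* (0.53), which encodes the matrix protein fibronectin, *Stx5a*, *Mid1ip1*, *Gpx8* and *C1s1*. For *Ccnd3* they were *Arpc1b* (0.58), a subunit of the actin-nucleating Arp2/3 complex, *Nfxl1*, *Abi2*, *Ybx1* and *Mettl1*.

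The proliferation genes were close to absent from WT wells. *Mki67* (chr7:135689784-135716361) had 0 counts in all 51 wells, *Cdk1* (chr10:69335146-69352938) had 1 count, *Ccnb1* (chr13:100778650-100786570) had 22 counts over 6 wells and *Top2a* (chr11:98992943-99024189) had 53 counts over 8 wells, all on the minus strand. No WT well reached 10 CPM of any of the 4, and the highest value was 9.17 CPM of *Top2a* in well 9, from 14 counts. In Reninnull wells the same genes had 6610, 5542, 15796 and 19571 counts. Of these, well 39 of library YFP1 held 92% of *Mki67*, 92.4% of *Cdk1*, 97.2% of *Ccnb1* and 92.8% of *Top2a*. The summed *Mki67* level in Reninnull, 16.6 CPM, was at least 1093-fold higher than in WT, with WT set at the limit of 3 counts summed over all its wells. The exact 95% interval, which allows WT slightly more than 3 counts, had a lower limit of 9.80 for the log2 ratio. The log2 ratio was 7.52 (7.13 to 7.93) for *Top2a* and 8.48 (7.88 to 9.15) for *Ccnb1*, and for *Cdk1*, with 1 WT count, 11.43 (8.95 to 16.73).

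The size of these ratios depended on well 39. Without it the log2 ratio was 6.47 for *Mki67*, 3.74 for *Top2a*, 3.33 for *Ccnb1* and 7.73 for *Cdk1*, against 1.14 for the median of all genes. All 4 genes together had 2243 counts over the other wells that did not meet the rule below, against 44731 in well 39. YFP2 alone, which holds neither of the wells described next, gave 6.81 for *Mki67*, 3.45 for *Top2a*, 3.59 for *Ccnb1* and 8.41 for *Cdk1*. These values rested on single wells in turn. Well 83 held 98.1% of the YFP2 counts of *Mki67* and well 67 held 97.1% of those of *Cdk1*, which leaves 7 and 11 counts in the other 47 wells, and wells 62 and 63 held 55.6% of *Top2a* and 56.4% of *Ccnb1*. Without that well for each gene, YFP2 gave 1.14, against WT set at 3 counts, for *Mki67*, 2.33 for *Top2a*, 2.44 for *Ccnb1* and 3.37 for *Cdk1*. Without both well 39 and that well, all Reninnull wells gave 4.81, 3.34, 2.68 and 4.92 in the same order. Well 36 was still among them, with 137 of the 164 *Mki67* counts left, 379 of the 1045 of *Top2a* and 29 of the 59 of *Cdk1*.

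**Figure D3:**
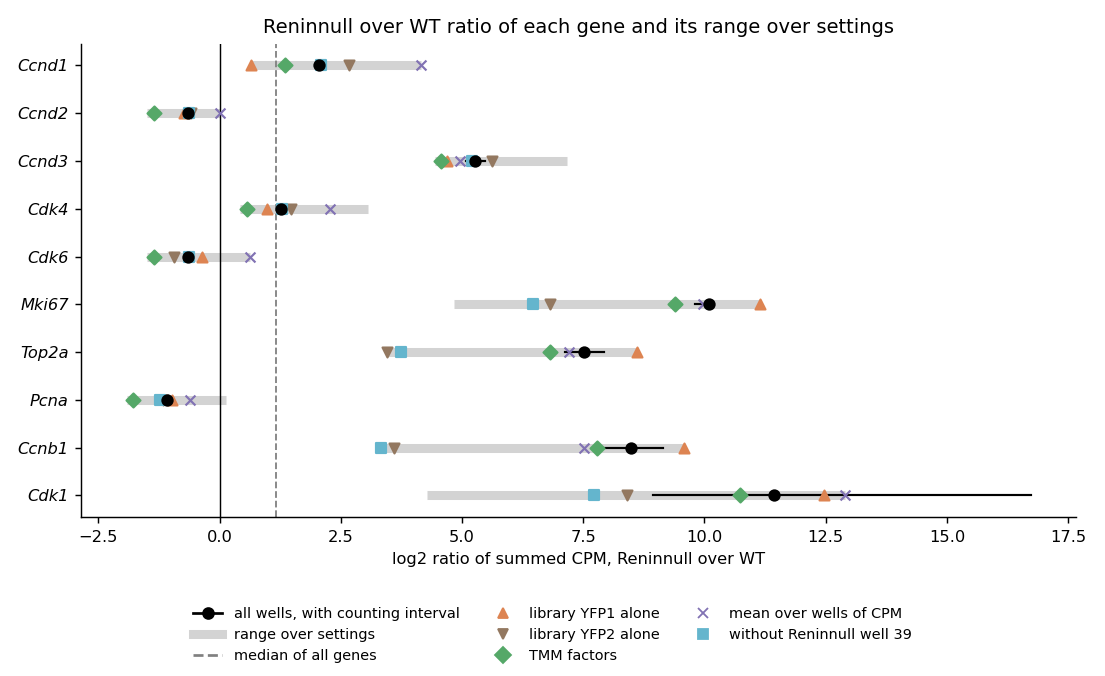
Log2 ratio of summed CPM, Reninnull over WT, for each of the 10 genes (black points, with 95% counting intervals, one-sided for *Mki67*, which had no WT count), the range over 11 settings (grey bars), 5 of these settings (coloured marks) and the median of all genes, 1.17 (dashed). Settings that leave out the highest YFP2 well are not among the 11. *Top2a*, *Ccnb1*, *Cdk1* and *Mki67* move far to the left without well 39, and *Ccnd2*, *Cdk6* and *Pcna* reach or cross 0 under some settings.

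A well was counted as holding proliferation transcripts where at least 3 of *Mki67*, *Top2a*, *Ccnb1* and *Cdk1* were at 10 CPM or more. No phase was called from this. In WT, 0 of 51 wells met it. This allows a share of up to 5.88% where 3 wells are taken as the upper limit of 0 wells, and 6.98% by the exact binomial interval. In Reninnull, 2 of 96 wells met it (2.08%, 0.253% to 7.32%), both in YFP1. With 1 count as the limit in place of 10 CPM, 15 Reninnull wells and 0 WT wells met it. Most of the 15 were in YFP1, the library of well 39, and they included the near-identical wells 48 and 96. A limit of 1 count is met more easily in deeper wells, and median depth was 1525970 counts in WT and 4107950 in Reninnull. In wells thinned to 100000 counts, 2 Reninnull wells and 0 WT wells met the rule. The genotypes were not compared beyond these counts. Of the other Reninnull wells, 81 had none of the 4 genes at 10 CPM, 12 had 1 and 1 had 2, the last from 1 count each of *Top2a* and *Cdk1* in well 40, which held 3849 counts in all. The wells with 1 gene included well 83, with *Mki67* at 50.1 CPM and *Pcna* at 230 CPM, and well 67, with *Cdk1* at 49.9 CPM and *Top2a* at 9.50 CPM. Well 83 held most of the Reninnull counts of the endothelial markers *Cdh5* (96%), *Pecam1* (81.8%), *Emcn* (69.6%), *Flt1* (68.9%) and *Kdr* (67.1%). It held 9787 genes, and its smooth muscle genes *Acta2*, *Tagln*, *Myh11* and *Cnn1* summed to 3134 CPM. The part of endothelial transcripts in the values of well 83 was not tested.

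Well 39 held 6486270 counts and 8206 genes, with 2.10% mitochondrial counts. It had *Top2a* at 2801 CPM, *Ccnb1* at 2368, *Mki67* at 938 and *Cdk1* at 790 CPM. *Pcna* stood at 117 CPM, and among the D-type cyclins *Ccnd3* at 161 CPM, with *Ccnd2* at 0.617 and *Ccnd1* at 0.154 CPM. *Cdk4* and *Cdk6* were at 22.4 and 21.6 CPM. Of 20 other genes of G2 and mitosis it had 15 at 10 CPM or more, led by *Tpx2*, a spindle assembly factor, at 3639 CPM, and of 18 genes of DNA replication it had 6, led by *Tyms*, thymidylate synthase, at 1871 CPM.

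Well 36 was shallower, with 292105 counts, 4313 genes and 3.05% mitochondrial counts. It had *Top2a* at 1297 CPM, *Mki67* at 469 and *Cdk1* at 99.3 CPM, and no count of *Ccnb1*. *Pcna* stood at 291 CPM, *Ccnd1* at 335, *Cdk4* at 110, *Ccnd3* at 24.0 and *Ccnd2* at 13.7 CPM, and *Cdk6* had no count. It held 14 of the 18 replication genes, led by *Rrm2*, a subunit of ribonucleotide reductase, at 2181 CPM, and 12 of the 20 G2/M genes, led by the mitotic kinesin *Kif23* at 1157 CPM. The balance of the lists therefore differed between these wells, with replication genes fuller in well 36 and *Ccnb1* present in well 39 alone. No other Reninnull well had more than 4 G2/M genes at 10 CPM, and no WT well more than 3. Replication genes set well 39 less apart, since well 20, with 11686 counts, also had 6 of the 18 at 10 CPM, and the most in a WT well was 4.

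Both wells had little of the transcripts that mark the other sorted cells. *Ren1*, deleted in these mice, was at 0 as in most Reninnull wells. *Akr1b7* was at 0.771 CPM in well 39 and 3.42 CPM in well 36, against a median of 376 CPM over Reninnull wells. The smooth muscle genes *Acta2*, *Tagln*, *Myh11* and *Cnn1* summed to 70.8 CPM in well 39 and 37.7 CPM in well 36, against a median of 5682 CPM over the other 94 Reninnull wells, of which 9 and 8 were as low. The 6 fibroblast genes summed to 4.16 and 6.85 CPM, against a median of 184. Of 6 macrophage genes, well 39 had no count of any. Well 36 had *Cd74* at 6600 CPM, *Lyz2* at 548 and *Cd68* at 219 CPM, with *Adgre1*, *C1qa* and *C1qb* at 0, and their sum of 7367 CPM was the highest of all Reninnull wells, the next being 339 CPM. *Ptprc*, which encodes the leukocyte antigen CD45, stood at 277 CPM in well 36, where the other genes of the lymphocyte list, *Cd3d*, *Cd3e*, *Cd79a* and *Cd79b*, had no count. Further genes were looked up after their values were seen: the MHC class II genes *H2-Aa*, *H2-Ab1* and *H2-Eb1* were at 27959, 5454 and 4909 CPM in well 36, the highest of all Reninnull wells, and the chromatin and microtubule genes *Hmgb1*, *Tubb5*, *Stmn1*, *Smc2* and *H2az1* were at 4927 to 10014 CPM in well 39, again the highest of all. The part of blood-derived cells in the count of proliferation wells was not tested, and without well 36 the count of such wells is 1.

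**Figure D4:**
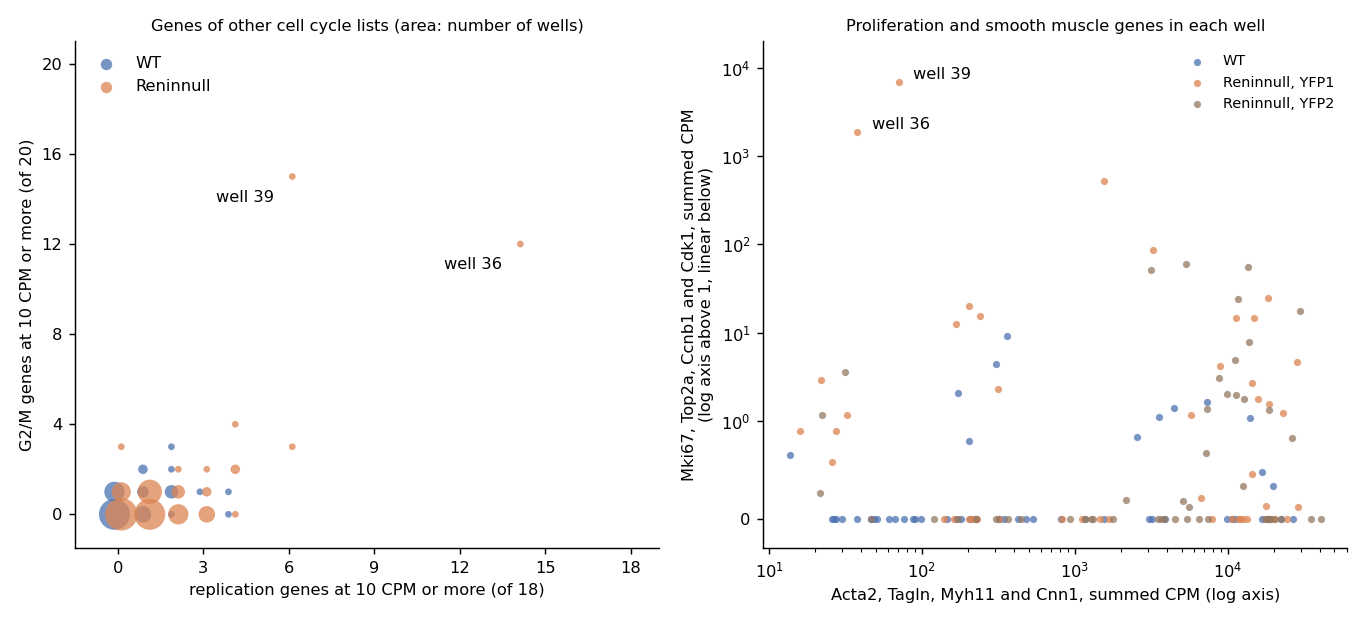
Left, number of G2/M genes (of 20) against number of replication genes (of 18) at 10 CPM or more, with symbol area proportional to the number of wells, for 51 WT and 96 Reninnull wells. Right, summed CPM of *Mki67*, *Top2a*, *Ccnb1* and *Cdk1* (log axis above 1, linear below) against summed CPM of 4 smooth muscle genes (log axis), 1 point per well. Wells 36 and 39 hold the most G2/M genes in the left panel. In the right panel they have the highest sums of the 4 genes, which follows from the rule on these genes that picked them. Their smooth muscle genes lie at 37.7 and 70.8 CPM, and some other Reninnull wells are as low.

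Counts of the 4 genes elsewhere in YFP1 showed no common direction by the index of well 39. Of the 14 wells that share an index with it, 14.3% had a count of *Mki67*, 35.7% of *Top2a*, 28.6% of *Ccnb1* and 35.7% of *Cdk1*. Of the 33 that share none, the shares were 27.3%, 51.5%, 27.3% and 21.2%.

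*Pcna*, at chr2:132249162-132253314 (minus strand), was found with and without the proliferation genes. In WT, 31 of 51 wells were at 0, and well 38 at 2717 CPM and well 33 at 174 CPM held 4818 and 1540 of the 7039 counts. Neither had a count of *Mki67*, *Top2a* or *Cdk1*, and *Ccnb1* was at 0 in well 38 and at 0.338 CPM in well 33. Both Reninnull proliferation wells had *Pcna* above 100 CPM. In Reninnull, 66 of 96 wells were at 0 and 11 exceeded 10 CPM, the highest being well 12 at 1764 CPM, from 76 counts. Summed levels were 35.6 CPM in WT and 16.8 CPM in Reninnull, a log2 ratio of -1.08 (-1.13 to -1.03). Well 38 held 68.4% of the WT counts. With the highest well of each genotype left out the log2 ratio was -0.01, and in quality wells, which leave out well 38, it was 0.12, beside medians of all genes of 1.89 and 1.11 under these settings. The lower absolute level in Reninnull therefore depended on that well, and the ratio stayed below that of the median gene. A count of *Pcna* was found in 10 of 14 WT wells that share an index with well 38 and 9 of 36 that share none. The processed copy *Pcna-ps2* had 1 WT and 2982 Reninnull counts, and reads may be split between it and *Pcna*.

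The other genes of the pathway were taken from fixed lists and are given by counts, beside the 52.4% of all genes that were 2-fold or more higher and the median of all genes of 1.17. Markers of other kidney cell types were higher in Reninnull wells too. The 8 proximal tubule markers were all 2-fold or more higher, with a summed level of 56.9 CPM in WT and 850 CPM in Reninnull. The 5 podocyte markers were all higher, at 86.1 and 559 CPM in sum with *Synpo* the most abundant, and *Podxl* was at 0 in WT. Of the 6 fibroblast markers 5 were higher (173 and 1159 CPM, *Col3a1* the most abundant in Reninnull), and of the 5 endothelial markers 4 (36.8 and 221 CPM, *Emcn*), with *Cdh5* at 0 in WT. Loop and distal tubule markers summed to 0.515 and 109 CPM, with 4 of 4 that had a ratio higher and *Pvalb* at 0 in both genotypes. Macrophage (0.495 and 6.86 CPM) and lymphocyte markers (2.26 and 8.99 CPM) were low, with 3 of 4 and 3 of 3 higher. Collecting duct markers, with 2 higher and 2 lower, summed to 10.6 and 45.7 CPM, and the 4 smooth muscle markers, with none 2-fold apart, to 10455 and 11546 CPM. The libraries differed, since podocyte markers summed to 143 CPM in YFP1 and 906 in YFP2 and endothelial markers to 28.7 and 381. The part of these cell types in the values of the pathway lists was not tested. Of 7 CDK inhibitors, 5 had a ratio, with 3 2-fold or more higher, 1 lower and a median of 2.74. *Cdkn1a*, which encodes p21, stood at 7.88 CPM in summed WT wells and 229 CPM in summed Reninnull wells, a log2 ratio of 4.86 (4.79 to 4.93), and was as far apart in both libraries (5.05 and 4.68). *Cdkn1c*, which encodes p57, stood at 9.75 and 241 CPM, with 28.5 CPM in YFP1 (log2 ratio 1.55) and 418 CPM in YFP2 (5.42). Well 6 held 95.5% of its WT counts and well 59 held 83.1% of its Reninnull counts. *Cdkn1b*, which encodes p27, was at 47.0 and 33.7 CPM, a log2 ratio of -0.48 (-0.52 to -0.44). *Cdkn2c* was lower in Reninnull, at -1.30 (-1.39 to -1.21), with 99.8% of its WT counts in well 10. With the highest well of each genotype left out its log2 ratio turned to 7.00, and it was -7.35 in YFP1 and -0.43 in YFP2. *Cdkn2a* had no count in either genotype and *Cdkn2b* had 1, in Reninnull.

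Among 13 pocket proteins and E2F factors, 7 were 2-fold or more higher and 3 lower, with a median of 1.11. The highest were *Rbl1*, which encodes the pocket protein p107, with 1 WT and 1531 Reninnull counts, and *E2f2*, with 0 and 1137. Well 63 held 71.98% of the Reninnull counts of *Rbl1* and well 85 held 44.5% of those of *E2f2*. *Rb1*, the retinoblastoma gene, had a log2 ratio of 4.71 (4.55 to 4.88), with 80.3% of its Reninnull counts in well 65, and *Tfdp2*, *E2f3* and *E2f4* were lower at -3.73, -2.46 and -2.25. Single WT wells held most counts of these, with 86.96% of *Tfdp2* in well 33, 87.8% of the 41 counts of *E2f3* in well 10 and 97.6% of *E2f4* in well 43. With the highest well of each genotype left out, *Tfdp2* and *E2f3* stood at -2.60 and -1.01, and *E2f4* turned to 1.13. The 5 G1/S genes had 3 higher and none lower, with a median of 1.72. *Ccne1* had 8 WT and 14 Reninnull counts and *Ccna2* 4 and 55, so these cyclin partners of CDK2 were rarely counted in either genotype, and *Ccne2* had 412 and 1206, with a log2 ratio of -3.39 in YFP1 and 1.37 in YFP2. The phosphatase *Cdc25a* had a log2 ratio of 5.26 with 70.7% of its Reninnull counts in well 1.

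Of 18 replication genes, 11 were 2-fold or more higher and 4 lower, with a median of 2.95. *Rrm2*, *Uhrf1* and *Prim1* lay highest and *Cdc6* and *Mcm7* lowest, at -6.79 and -6.13. Single wells held most counts of some of these: well 43 held 90.02% of the WT counts of *Mcm7*, and well 30 held 98.5% of the Reninnull counts of *Uhrf1*. With the highest well of each genotype left out, *Rrm2* moved from 10.17 to 6.82, *Uhrf1* from 10.12 to 4.03 and *Prim1* from 8.93 to 8.31. *Mcm7* stood at -4.95 and *Cdc6* had no ratio under that setting. Of 20 G2/M genes, 19 had a ratio, 16 were 2-fold or more higher and 1 lower, with a median of 5.60. Well 39 held over 90% of the Reninnull counts of *Aurkb* (99.5%), *Cdc20* (99.6%), *Ccnb2* (97.5%), *Tpx2* (92.8%) and others, and without it the median of this list was 2.67. *Cenpa*, a centromeric histone, had the highest WT level of this list, 440 CPM, beside 278 CPM in Reninnull. The libraries lay on either side of WT, at 471 CPM in YFP1 (log2 ratio 0.10) and 118 CPM in YFP2 (-1.90). *Bub1b*, a spindle checkpoint kinase, was lower in Reninnull at -4.53 (-4.59 to -4.46), with 82.9% of its WT counts in well 28. Well 39 held 98.5% of its Reninnull counts, and with the highest well of each genotype left out the log2 ratio was -8.08.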

How the data were processed

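Single sorted cells were profiled by full-length RNA-seq. Reads were trimmed (Trimmomatic) by the authors, who quantified transcripts of GRCm38/ENSEMBL with Salmon and obtained gene values through tximport (lengthScaledTPM). The submitters' processing notes name Trimmomatic 0.39, Salmon 0.11.2 and FastQC 0.11.5. The deposited values are expected counts per gene and well, not normalized for depth. They were rounded to whole numbers and summed per genotype. Depth was 197904443 counts in WT and 398812805 in Reninnull wells.

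Ratios are log2 ratios of summed CPM. A genotype at 0 was set to 3 counts over the genotype, and no ratio was taken where both held 3 counts or fewer. Intervals (95%) are exact Poisson for sums, exact conditional for ratios and Clopper-Pearson for shares, over wells taken as independent. Gene positions and transcript lengths came from GENCODE M21 by symbol, promoters from RefSeq. Named genes were the 10 members, up to 4 highest and 4 lowest genes per list, marker genes and the 5 genes most like each D-type cyclin. *Rb1*, *Cdc20*, the genes leading a list in well 36 or 39, and those said to be looked up later were chosen after their values were seen. Members and lists were chosen with earlier results of these data known. No filter was applied to wells except where quality wells are named. Alternatives were other scalings (mean over wells, TMM, median-of-ratios, no mitochondrial counts), each library alone, the highest well left out, quality wells, near-identical wells once, thinning to 100000 counts, a filter of 100 counts, other limits and lengths. Leaving out well 39 or the highest YFP2 well, a limit of 3 counts and the list medians with the highest well left out were added after seeing the data. The ratio and its interval were tested on simulated data. Software was Python 3.11.15, numpy 2.4.6, pandas 2.3.3, scipy 1.17.1, matplotlib 3.10.9, R 4.3.3 and edgeR 4.0.16, used for TMM factors only.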

Additional observations from a re-analysis of the deposited data

How the results depend on the processing

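No paired analysis was possible because the labels give no replicate numbers that tie wells of the genotypes together and no result comes from a test. Of the 10 genes, 7 kept the direction of their ratio under all 11 settings, while *Ccnd2* turned under 1, *Cdk6* under 2 and *Pcna* under 1, the quality wells, at 0.12. The number of members 2-fold or more higher stayed between 5 and 7. The number lower, 1, became 0 with the mean over wells, YFP1 alone, the highest well left out or quality wells, and 3 with TMM, with median-of-ratios factors or relative to the median of all genes. The 2 Reninnull proliferation wells became 15 at a limit of 1 count, 1 at 100 CPM and 1 where all 4 genes were asked for. They stayed 2 in wells thinned to 100000 counts, and 0 WT wells met any of these limits.

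The *Ccnd2* share of D-type cyclins, 97.6% in WT and 77.9% in Reninnull, became 99.1% and 87% with mean transcript lengths, 98.6% and 88.3% undivided by length, 98.4% and 75.2% with the mean over wells, 100% and 91.5% as the median over wells, 98.8% and 85% with the highest well left out, and 97.1% and 77.1% in quality wells. The Reninnull share was 78.5% with near-identical wells counted once, 86.6% in YFP1 and 72.4% in YFP2. It stayed below the WT share in each.

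In YFP1, YFP2 and with TMM factors, the list medians became 1.55, 3.14 and 2.03 for CDK inhibitors and 0.30, 2.54 and 1.01 for G1/S genes, and 2.44, 1.44 and 2.25 for replication genes. Those of pocket proteins and E2F factors became 0.57 in YFP1 and 0.41 with TMM. The G2/M median became 2.51 in YFP2, 4.90 with TMM and 2.67 without well 39, which also moved the CDK inhibitors to 2.53. With the highest well of each gene left out in each genotype, the medians became 6.55 for CDK inhibitors, 5.00 for pocket proteins and E2F factors, 3.90 for replication genes and 2.99 for G2/M genes, beside 1.89 for all genes. The causes were not tested. With 1 sample per genotype, depth limits what a well with few counts can show, and no setting adds a replicate.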
